A study of Caenorhabditis elegans with 2 samples.

Results

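The 5 actin genes of Caenorhabditis elegans, act-1, act-2, act-3, act-4 and act-5, were taken by name from the Ensembl annotation of the worm genome, where they are 5 of 19973 protein-coding genes. For each gene, peak summits were collected that lay within 500 bp of its annotated 5' end or within its body, from all 4 deposited peak lists. The lists come from chromatin immunoprecipitation and sequencing of early embryos at 0 hours, harvested by bleaching. The worms were of strain OP660, which carries the mutation unc-119(tm4063) and the transgene wgIs660, made up of hmg-4 fused to TY1, EGFP and 3xFLAG tags together with a rescuing copy of unc-119. The precipitation used an antibody against green fluorescent protein. Both replicates belonged to this 1 group, of mixed sex, and no untagged or wild-type embryos were analysed here. The labels name no change to the worms' own hmg-4, so untagged HMG-4 may be present too, and embryos were taken whole, so a peak sums over all their cells.

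HMG-4 is the worm relative of SSRP1, a subunit of the histone chaperone FACT, which loosens and rebuilds nucleosomes as polymerases pass. Actin is the protein of muscle thin filaments and of the cell cortex, where it drives polarity, cytokinesis and cell shape in the early embryo. In the worm, act-1, act-2, act-3 and act-4 make nearly the same protein and serve muscle and other cells, with act-2 known to act in the early embryonic cortex. The product of act-5 is a divergent actin of the microvilli of the intestine and excretory canal.

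The genes lie at 3 places. On chromosome V, act-3 (11071690 to 11074498, minus strand), act-2 (11076777 to 11078154, minus strand) and act-1 (11081052 to 11082415, plus strand) form a cluster of 10726 bp with 12 annotated non-coding RNA genes inside it. On X, act-4 runs on the plus strand at 4960621 to 4964413. On III, act-5 runs on the minus strand at 13604412 to 13606066. All positions are 1-based on the ce11 build.

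The 5' flanks are shown because the peaks at act-4 and act-3 sit on them and because they show the outermost annotated 5' end of each gene. Each line gives the 200 bases before the annotated 5' end, read along the gene from 5' to 3' in the RefSeq genome of that build. They are chrX:4960421-4960620 (plus strand) for act-4, chrV:11074499-11074698 (minus strand) for act-3, chrV:11080852-11081051 (plus strand) for act-1, chrV:11078155-11078354 (minus strand) for act-2 and chrIII:13606067-13606266 (minus strand) for act-5. Capitals mark TATAAA, the core of a TATA box, and TTTCAG, the worm splice acceptor, searched on both strands (TTTATA is TATAAA on the other strand).
act-4: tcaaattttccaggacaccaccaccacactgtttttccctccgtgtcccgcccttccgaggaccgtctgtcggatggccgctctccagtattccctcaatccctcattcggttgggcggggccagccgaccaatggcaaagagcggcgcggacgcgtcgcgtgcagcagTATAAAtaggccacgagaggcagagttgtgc
act-3: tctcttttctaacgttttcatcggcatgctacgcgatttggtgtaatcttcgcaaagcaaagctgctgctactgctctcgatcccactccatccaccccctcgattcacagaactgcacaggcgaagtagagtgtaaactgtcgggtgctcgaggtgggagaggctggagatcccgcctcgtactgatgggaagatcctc
act-1: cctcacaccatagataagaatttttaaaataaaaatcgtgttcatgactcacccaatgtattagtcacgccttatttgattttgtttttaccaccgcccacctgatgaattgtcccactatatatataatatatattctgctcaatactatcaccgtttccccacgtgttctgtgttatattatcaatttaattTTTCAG
act-2: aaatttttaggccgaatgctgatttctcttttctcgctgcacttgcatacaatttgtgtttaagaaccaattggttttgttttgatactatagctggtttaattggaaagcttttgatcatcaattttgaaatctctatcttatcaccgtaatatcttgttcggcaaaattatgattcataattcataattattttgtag
act-5: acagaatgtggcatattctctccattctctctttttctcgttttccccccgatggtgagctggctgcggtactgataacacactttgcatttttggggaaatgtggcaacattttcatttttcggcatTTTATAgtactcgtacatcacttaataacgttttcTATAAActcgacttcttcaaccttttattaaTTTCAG

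In act-4 the TATAAA starts 31 bases before the 5' end, and in act-5 it starts 37 bases before it, with another copy on the opposite strand starting 72 bases before. TATAAA occurred on either strand in 30.4% of the 200-base flanks of all protein-coding genes, and TTTCAG in 36.8%. The flanks of act-1 and act-5 end in TTTCAG directly at the 5' end, as 12.3% of all flanks did, and the flank of act-2 also ends in AG, as did 27.6%. In worms, such ends are often places where a leader RNA is spliced onto the message, so the start of transcription can lie further upstream, at a place the annotation does not give. The flanks of act-4 and act-3 do not end in AG, but each of these genes has another transcript that begins further in. It begins 2254 bp into act-4 and 1234 bp into act-3, and the flanks there were not examined. The printed flanks of both genes were also rich in G and C, at 60% for act-4 and 53% for act-3. Over all protein-coding genes the median was 33% and the 95th percentile was 45%. The other flanks had 33% (act-1), 30% (act-2) and 38% (act-5). These 200-base flanks were 33.8% to 46.6% identical between any pair of the genes.

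Each peak is an interval called by the authors against a control, with a summit and a signal value, which is the authors' own score of enrichment. Ranks count from the strongest peak of a list. The lists of replicate 1, replicate 2 and both replicates pooled held exactly 30000 peaks each, down to signal values of 21.6, 21.8 and 38.4. A shorter list, cut by the authors at an irreproducible discovery rate (IDR), held the strongest pooled peaks and no others, down to 129.8. At IDR peaks with a peak in both replicates' lists, a pooled value was about the sum of both replicates' values. The median ratio of pooled value to sum was 0.998 there, with a 5th percentile of 0.821. The read depth is unknown, and the lowest deposited −log10 q-values were 0.361, 0.0743 and 0.281 in the lists of replicate 1, replicate 2 and the pool, so these lists include weak entries. With 1 group and 2 replicates, no difference could be tested, and all values are descriptions.

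Among the actin genes, only act-4 had IDR peaks at its 5' end or in its body, and it had 3. The act-1, act-2 and act-3 cluster had IDR peaks between and beside its genes, with summits on non-coding RNA genes or in intergenic sequence, and none at their 5' ends or in their bodies. At act-5, peaks were weak in every list that held any. A summit 500 bp or less from the 5' end is called a 5'-end summit below. In the IDR list, 1 of 5 actin genes had a 5'-end summit, where 4.38% of all protein-coding genes did, and the same gene was the 1 of 5 with a summit in the body, where 3.09% did. With 5 genes, 1 gene is a count too small to set against these shares.

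In the pooled list, 4 of 5 actin genes (all but act-1) had a 5'-end summit, against 29.5% of all protein-coding genes, and 3 of 5 (act-2, act-4 and act-5) had one in the body, against 40.6%. With 5 genes, the counts in this list and in the replicates' lists are also too small to set against the shares. The pooled 5'-end summits of act-2 and act-5 were weak, with −log10 q-values of 0.733 or lower, and the strongest at act-2 lay in non-coding genes. Replicate 1 had 5'-end summits at 3 of 5 (act-2, act-4 and act-5; 28.2% of all genes) and body summits at the same 3 (40.2%). Replicate 2 had both kinds of summit at 4 of 5, the same 3 and act-3 (31.5% and 43.1% of all genes). Body shares depend on gene length, which was 1364 bp in act-1, 1378 bp in act-2, 2809 bp in act-3, 3793 bp in act-4 and 1655 bp in act-5, against a median of 2027 bp. The replicates' lists thus differed on act-3 and matched on which of the other 4 genes they marked.

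At act-4, 4 pooled peaks followed each other from the 5' end through the long first intron, and 3 of them were IDR peaks. The strongest had its summit 43 bp before the 5' end, with a pooled signal value of 145.2 (rank 1629). The others lay 603 bp (132.2, rank 2038), 1163 bp (144.1, rank 1657) and 1818 bp (123.6, rank 2411) into the gene. The last of these was below the IDR list's lowest value of 129.8. All 3 inside the gene fell in the intron of 2081 bp between the first and second exons, and no pooled summit lay in an exon of act-4. The replicates' own lists did hold summits in its coding exons, of 27.4 at 3104 bp in replicate 1 (rank 22771) and 38.2 at 2559 bp in replicate 2 (rank 8910). The summit at 1818 bp lay 436 bp before the 5' end of the shorter transcript of act-4, which begins 2254 bp into the gene. Of all protein-coding genes, 40 (0.200%) had at least 3 IDR summits in the body or at the 5' end, which was 3.096% of the 1292 genes with any. The cut of 3 was taken from the count at act-4 itself, so these shares are no test of it. Gene length was not matched, and 76.2% of protein-coding genes were shorter than act-4.

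Some peak intervals at act-4 were narrower than usual. The IDR interval at the 5' end had the usual 440 bp, whereas those inside the gene spanned 216 and 201 bp, and 15.3% of all IDR peaks were narrower than 440 bp. In replicate 1 the interval at the 5' end spanned 113 bp, and the next 2 into the gene spanned 168 and 175 bp, where 1.15% of that list was narrower than 436 bp. The other replicate 1 peaks at and before act-4 had the usual 436 bp. In replicate 2 every peak at act-4 spanned 436 bp.

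**Figure D1:**
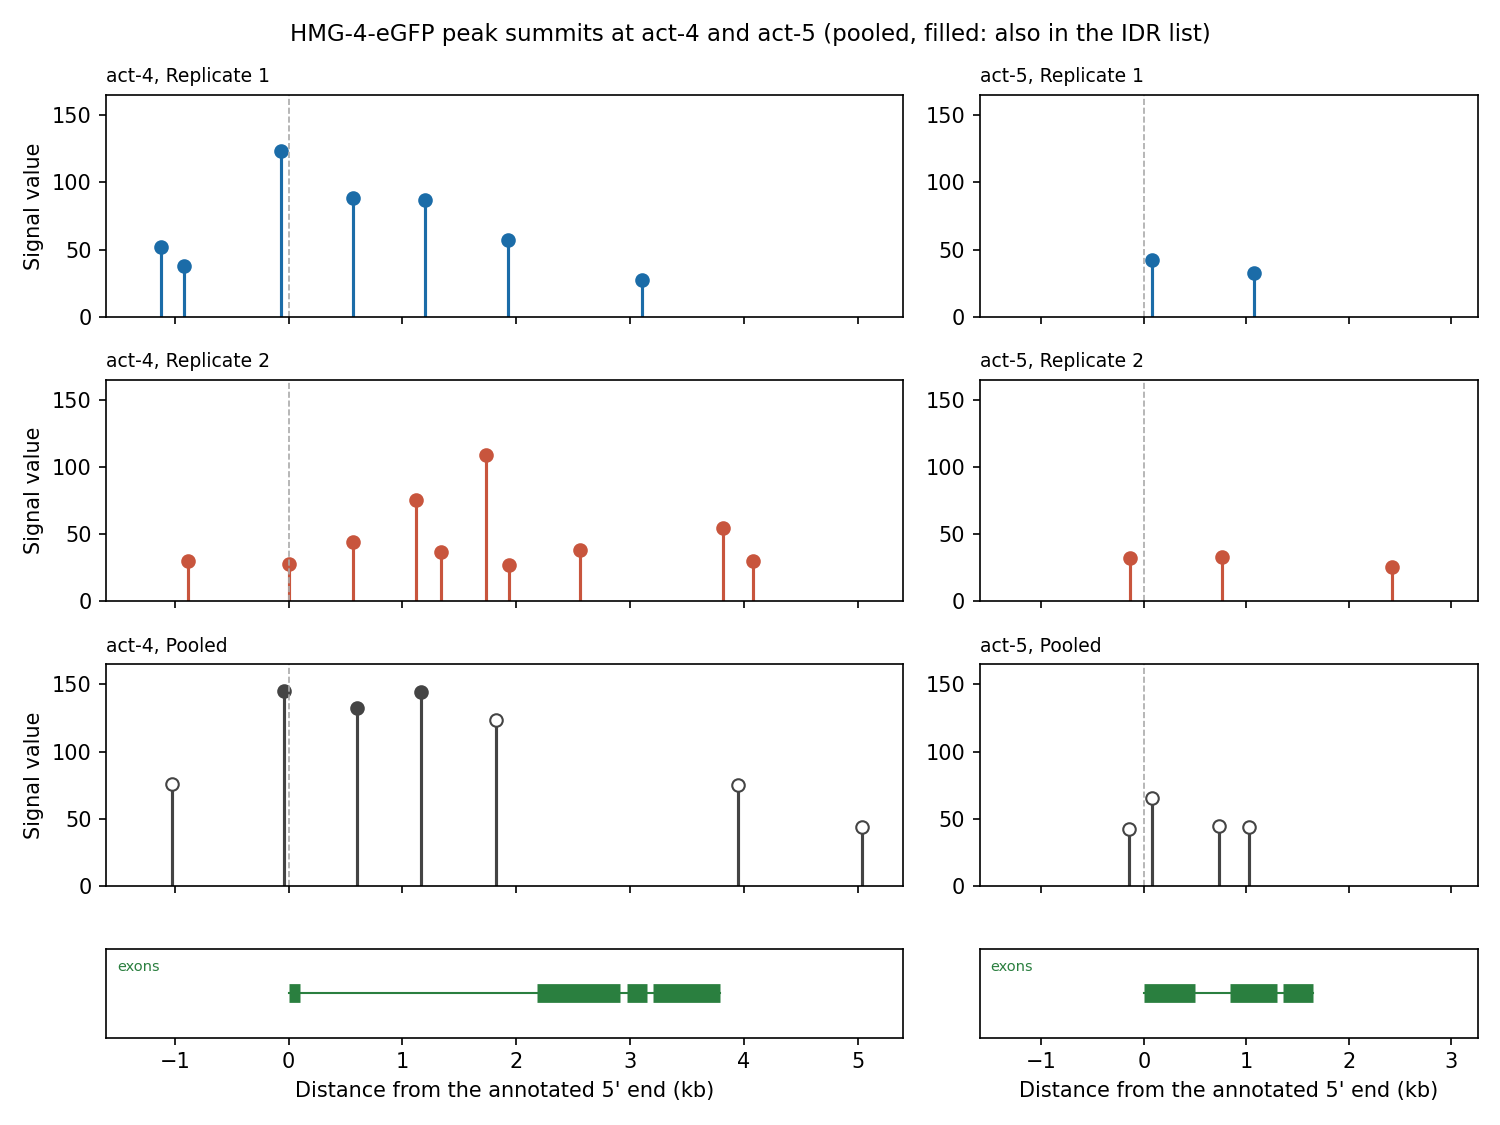
Signal value of each peak (vertical axis) against the distance of its summit from the annotated 5' end in kb, for act-4 (left) and act-5 (right), in replicate 1, replicate 2 and the pooled list, with exons as boxes in the lowest panels. In act-4 the highest stem of replicate 1 (123.2) is at the 5' end and that of replicate 2 (108.8) is 1734 bp into the gene, whereas the highest stem of act-5 is the pooled peak of 65.5.

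The replicates placed the signal along act-4 differently. At the 5' end, the signal value was 123.2 in replicate 1 (rank 592, summit 63 bp before the end) and 27.9 in replicate 2 (rank 18954, summit 5 bp after it). At the peak 603 bp in, it was 88.3 in replicate 1 and 44.2 in replicate 2. At 1163 bp it was 86.7 in replicate 1 and 75.7 in replicate 2. At 1818 bp the order was turned round, with 56.9 in replicate 1 (rank 4478, summit at 1930 bp) and 108.8 in replicate 2 (rank 597, summit at 1734 bp). Replicate 2 also had a weaker peak of 27.4 (rank 19669) at 1938 bp, nearer the replicate 1 summit. Against that peak, replicate 1 had the higher value.

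The ratio of replicate 1 to replicate 2 was thus 4.41 at the 5' end, then 2.00, 1.14 and 0.523 at the following peaks. The replicate 2 peak at the 5' end was a weak entry, with a −log10 q-value of 0.147. Its signal value of 27.9 was near that list's lowest, 21.8. The ratio of 4.41 and the span given below depend on this entry. Over the 1938 IDR peaks with a peak in both replicates' lists, the median ratio was 1.22, with 5% of peaks below 0.664 and 5% above 2.19. The ratio at the 5' end of act-4 was above 99.9% of these, and that at 1818 bp was below all but 1.55%. There were 371 protein-coding genes with exactly 4 pooled peaks matched in both replicates, act-4 among them. Their highest ratio was a median of 1.83 times their lowest, against 8.44 times at act-4, a span that no other of the 371 reached. The ratio decreased at every step from 5' to 3' in act-4 and in 4 others, 5 genes in all (1.35%). In act-4 both the span and the decrease rest on the ratio of 0.523, taken with the strongest overlapping replicate 2 peak, at 1734 bp. With the replicate 2 peak of 27.4 at 1938 bp instead, the span would be smaller and the last step would be a rise. The other genes were not recounted with such a pairing. Neighbouring peaks of a gene can share a matched replicate peak, and then have equal ratios. The count of 371 and these comparisons were chosen after the values at act-4 were seen.

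**Figure D2:**
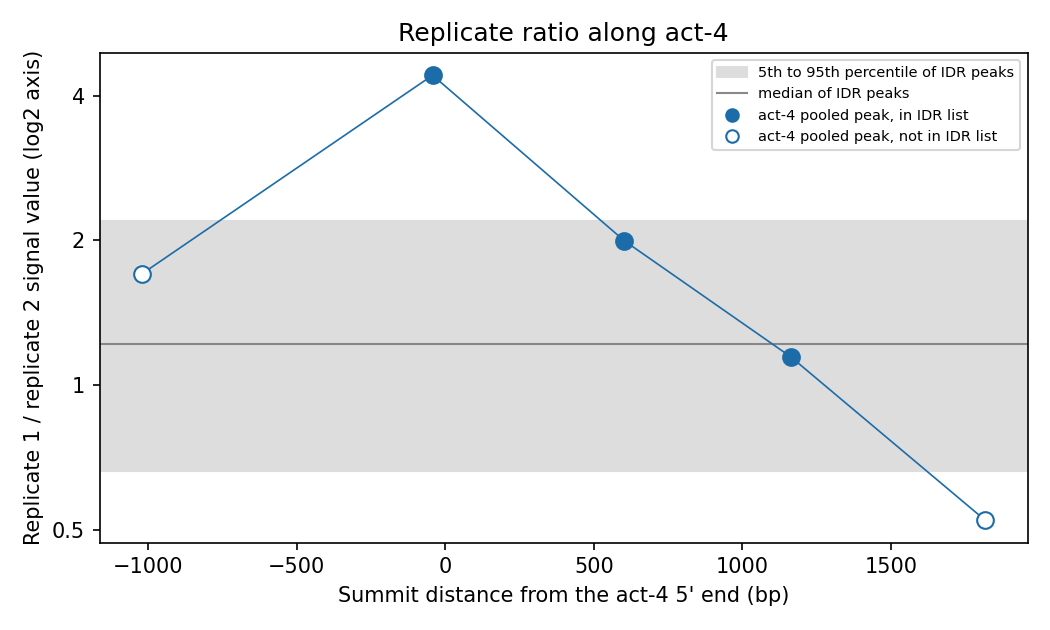
Ratio of the replicate 1 to the replicate 2 signal value (vertical axis, log2 scale) at pooled peaks of act-4 with a peak in both lists, against summit distance from the 5' end in bp; filled points are IDR peaks, and the grey band and line are the 5th to 95th percentile and the median of IDR peaks. The ratio is highest at the 5' end (4.41) and lowest 1818 bp into the gene (0.523), and both points lie outside the band. The lowest point matches a replicate 1 summit at 1930 bp to a replicate 2 summit at 1734 bp.

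The IDR peak at the 5' end of act-4 rests on replicate 1. When as many of the strongest peaks of replicate 2 were used in place of the IDR list, 0 actin genes had a 5'-end summit, while the summits at 1118 bp (rank 1460) and 1734 bp (rank 597) into act-4 were among them. With as many of the strongest of replicate 1, act-4 had summits of both kinds. The strongest peak anywhere at act-4 was 123.2 in replicate 1, 63 bp before the 5' end, and 108.8 in replicate 2, 1734 bp into the gene.

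Beyond the annotated end of act-4, a pooled peak of 75.1 lay 3947 bp from its 5' end, inside the neighbouring gene M03F4.6, whose 3' end overlaps that of act-4 by 1 base. Replicate 2 had a peak of 54.6 there and replicate 1 had none. Upstream, 1022 bp before act-4, the pooled value was 75.98, with 51.9 in replicate 1 and 30.5 in replicate 2. The nearest gene on that side, M03F4.4, is 3203 bp away.

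In the cluster on chromosome V, the strongest peak lay in the gap between act-2 and act-1, 549 bp before the 5' end of act-1 and so just outside the 500-bp window. Its pooled signal value was 234.8 (rank 543 in the IDR list), with 132.7 in replicate 1 (rank 498) and 92.9 in replicate 2 (rank 878). It was stronger than any peak at the other actin genes. Its summit fell in a pair of overlapping non-coding RNA genes on opposite strands, T04C12.25 and T04C12.16, whose functions the files do not give. The ratio between the replicates was 1.43, close to the median over IDR peaks. These non-coding genes and others named at peaks more than 500 bp from an actin 5' end were chosen after their values were seen.

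The next IDR peak, with a pooled value of 164.6 (rank 1229), lay between act-2 and act-3, 1328 bp before the 5' end of act-3, in another overlapping pair of non-coding genes, T04C12.15 and T04C12.21. Replicate 1 had 81.5 there and replicate 2 had 87.7. The third IDR peak, of 144.5 (rank 1641), lay 2804 bp from the 5' end of act-1, beyond its 3' end, near the non-coding gene T04C12.22. Replicate 2 had a peak of 62.2 at that place, and the list of replicate 1 had none. The pooled value exceeded that of replicate 2 by 82.3, and whether replicate 1 had reads at that place was not tested.

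The sequences around the summits of the strongest pair of these peaks are given in full because they lie outside the actin genes themselves. They are chrV:11080428-11080578 (plus strand, along act-1) and chrV:11075751-11075901 (minus strand, along act-3), each 151 bases with the summit in the middle. Neither holds TATAAA or TTTCAG.
peak before act-1: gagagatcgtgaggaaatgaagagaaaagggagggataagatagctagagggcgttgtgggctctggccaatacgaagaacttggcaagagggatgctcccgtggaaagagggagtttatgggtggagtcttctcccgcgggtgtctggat
peak before act-3: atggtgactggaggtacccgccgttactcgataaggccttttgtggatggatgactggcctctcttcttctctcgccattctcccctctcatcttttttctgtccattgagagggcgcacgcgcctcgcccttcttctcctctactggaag

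They held 52.98% and 54.3% G and C, and over all IDR peaks the 201 bases around the summit had a median of 48.8%.

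Between act-2 and act-1 there were weaker peaks too. A pooled peak of 119.2 (rank 2623) lay 1392 bp before act-2, with 84.997 in replicate 1 and 44.8 in replicate 2. A peak 457 bp before the 5' end of act-2 had a pooled value of 71.0, with 57.1 in replicate 1 and 39.8 in replicate 2. Its summit was in the non-coding genes T04C12.18 and T04C12.24. The summit of replicate 2 was 513 bp before the 5' end, so this gene's 5'-end summit in replicate 2 was instead a peak of 30.6 inside the gene.

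The body of act-2, the actin known for the early cortex, held 2 weak pooled peaks with summits in its second exon. Their pooled values were 67.5 at 439 bp and 63.1 at 673 bp into the gene. In that exon, replicate 1 had 27.4 at 360 bp and 35.6 at 570 bp, and replicate 2 had 30.6 at 458 bp and 23.0 at 677 bp. Beyond the 3' end of act-2, a pooled peak of 99.3 lay in the non-coding gene T04C12.14, with 46.4 in replicate 1 and 52.1 in replicate 2.

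At act-3, a pooled peak of 122.1 (rank 2486) had its summit 79 bp before the 5' end, in the flank printed above, and was below the IDR list's lowest value. Replicate 2 had a peak of 59.5 there (rank 2635), and the list of replicate 1 had no peak overlapping it. The pooled value exceeded that of replicate 2 by 62.6. Whether replicate 1 had reads there was not tested. Of all IDR peaks, 197 overlapped no peak of replicate 1 and 2 overlapped none of replicate 2. Replicate 2 also had a peak of 59.9 (rank 2596) in the first intron of act-3, 892 bp into the gene and 342 bp before the 5' end of its shorter transcript. Neither replicate 1 nor the pooled list had a summit in the body of act-3.

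At act-1 no list had a summit in the body or within 500 bp of the 5' end, and no peak interval of any list touched the gene. The nearest entry downstream was a weak pooled peak of 53.4 in T04C12.29, beyond the 3' end. Replicate 2 had a peak of 24.1 that overlapped it, and replicate 1 had none.

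**Figure D3:**
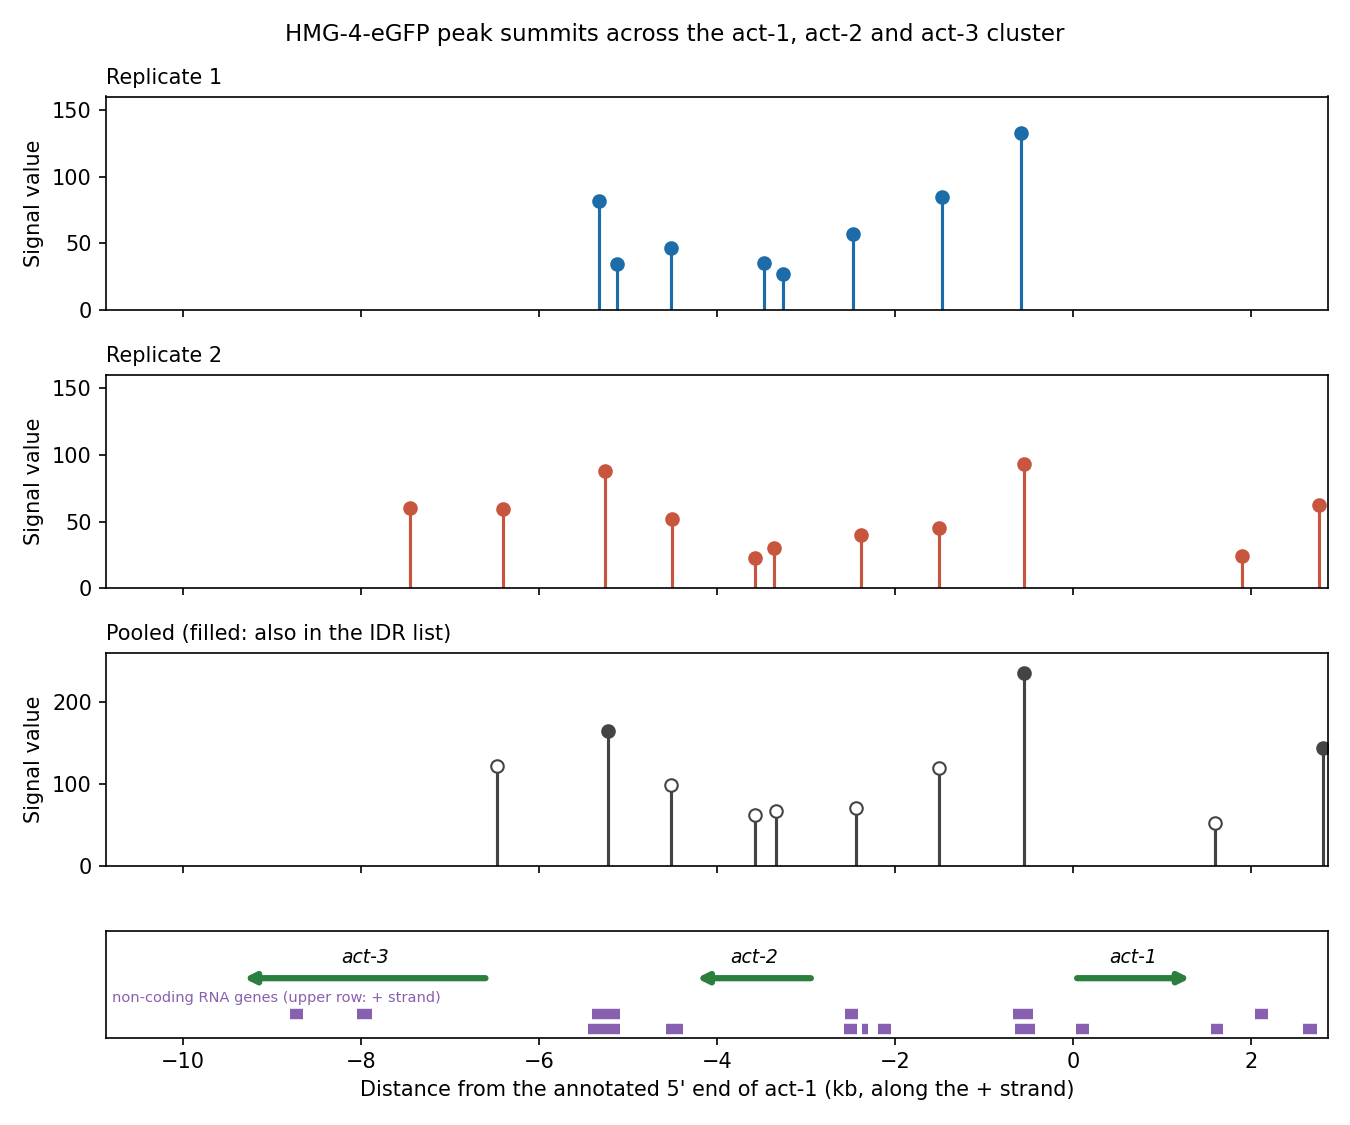
Signal value of each peak (vertical axis) against summit position in kb from the annotated 5' end of act-1, in replicate 1, replicate 2 and the pooled list, with the actin genes as arrows pointing along transcription and non-coding RNA genes as bars. The 3 filled pooled peaks, at 234.8, 164.6 and 144.5, lie outside the actin genes, and no stem stands within act-1.

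The near identity of these genes bears on what can be seen in their bodies. The coding sequences of act-1 and act-3 were identical over 1128 bases. Those of act-2 and act-4 were 96.2% and 94.1% identical to act-1, with 3 and 1 differences among 376 residues of protein, and act-5 was 83.9% identical with 29 protein differences. Of the positions in the coding exons, those that start a stretch of 50 bases found once in the genome made up 5.23% in act-1 and 7.62% in act-3, against 70.9% in act-2, 90.2% in act-4 and 100% in act-5. Over whole gene bodies the shares were 16.9% in act-1, 59.8% in act-3, 74.7% in act-2, 97.1% in act-4 and 100% in act-5. All 500 bases upstream of each of the 5 genes were unique by this measure. Over the full window, 500 bp on both sides of the 5' end, the share was 51.9% in act-1 and 97.8% in act-2. It was 100% in act-3, act-4 and act-5. What this did to the count of 5'-end summits was not tested.

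With 36 bases the shares of coding positions were 2.84% in act-1 and 5.14% in act-3, and with 100 bases they were 14.1% in act-1 and 16.5% in act-3. The sources used here do not give the read length or whether reads with several matches were counted. At these lengths, reads from the coding exons of act-1 and act-3 can for the most part not be told apart, and what this did to the peak lists there was not tested. The IDR intervals at act-4 and in the cluster were unique at every position with 36, 50 and 100 bases. The pooled intervals in the body of act-2 were unique at 79.8% and 62.7% of positions with 50 bases, so their values may include reads of other actin genes or miss reads of act-2.

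**Figure D4:**
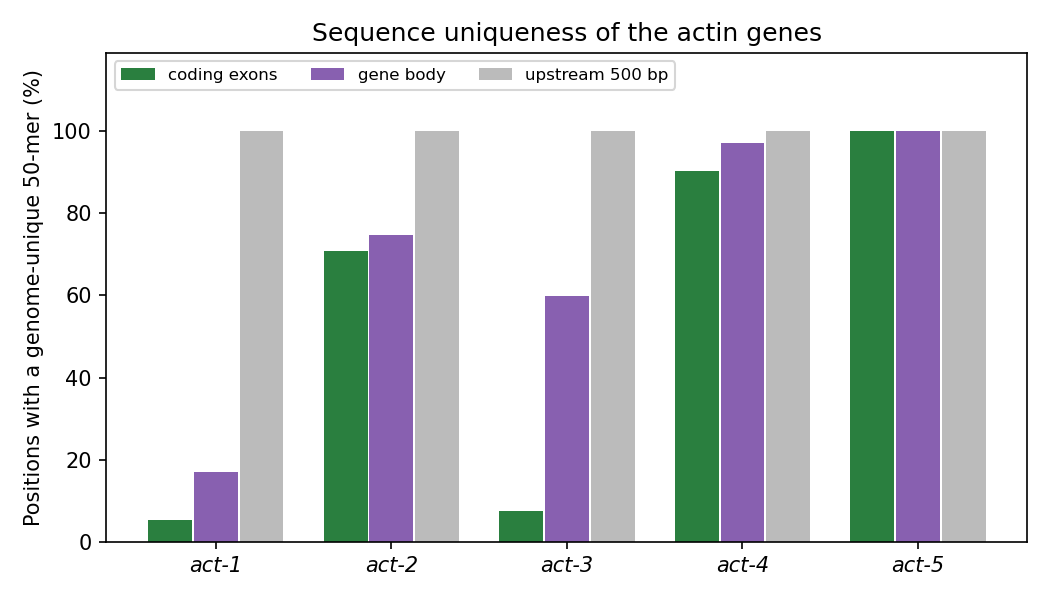
Share of positions (vertical axis, percent) that start a stretch of 50 bases found once in the nuclear genome, for the coding exons, the gene body and the 500 bp upstream of each actin gene. Coding exons of act-1 (5.23%) and act-3 (7.62%) are low, and upstream sequence is at 100% for all 5 genes.

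At act-5, the microvillus actin, the strongest pooled peak was 65.5 (rank 12200), with its summit 81 bp into the gene, in the coding part of the first exon. Replicate 1 had a peak of 41.9 at 80 bp (rank 10350) and replicate 2 had one of 32.4 at 130 bp before the 5' end (rank 13534). Further pooled peaks of 42.1, 44.5 and 44.1 lay 144 bp before the 5' end and 732 and 1024 bp into the gene. In the body, replicate 1 had 33.0 at 1072 bp and replicate 2 had 33.1 at 767 bp. The −log10 q-values of the act-5 peaks were 0.611 or lower in the pooled list. The nearest IDR summit was 9724 bp away.

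By distance from the 5' end to the nearest IDR summit, the genes ran from act-4 (43 bp) through act-1 (549 bp), act-3 (1328 bp) and act-2 (2328 bp, to the same peak as act-3) to act-5 (9724 bp). The median over protein-coding genes was 23922 bp. The shares of all protein-coding genes that were nearer were 0.421% for act-4, 4.62% for act-1, 7.39% for act-3, 10.1% for act-2 and 27.2% for act-5. By the strongest pooled value at the 5' end or in the body, the order was act-4 (145.2), act-3 (122.1), act-2 (71.0) and act-5 (65.5), with none at act-1. At their strongest pooled peaks, act-2 was above act-5 within each replicate, though the values overlapped across replicates. At the strongest pooled peak of act-2, replicate 1 had 57.1 and replicate 2 had 39.8, its summit 513 bp before the 5' end and so just outside the window. At that of act-5, replicate 1 had 41.9 and replicate 2 had 32.4. With only summits in the window or the body counted, the strongest in replicate 2 was 30.6 at act-2 and 33.1 at act-5, the reverse order. Whether act-4 and act-3 differ beyond their spread cannot be judged, since replicate 1 lists no peak at act-3.

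**Figure D5:**
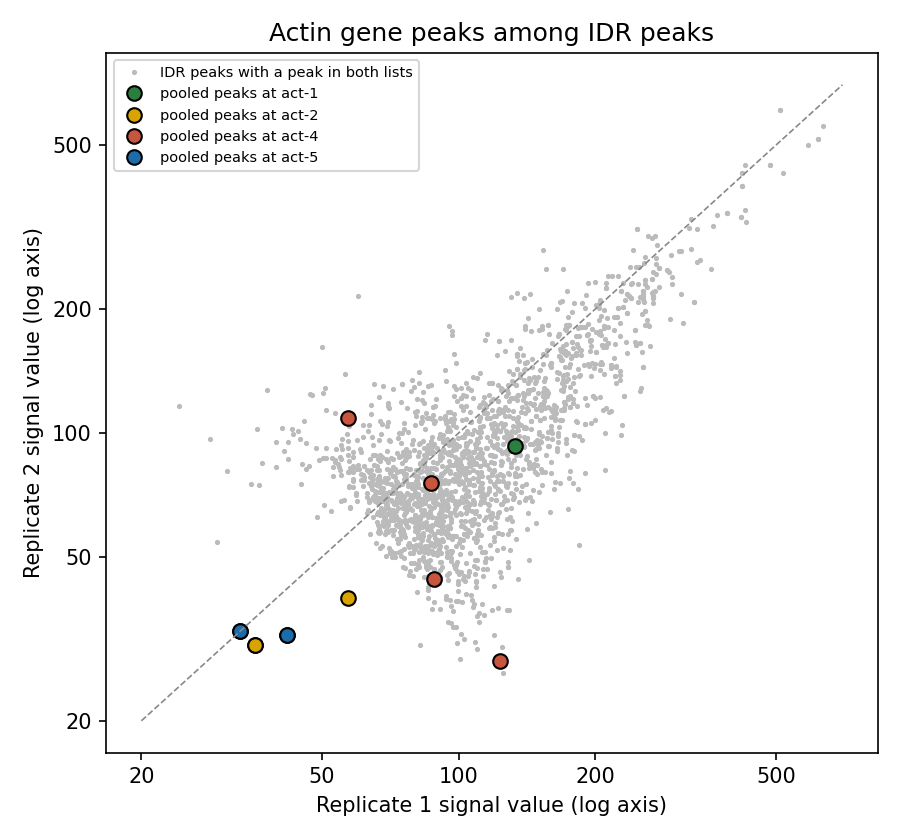
Replicate 2 against replicate 1 signal value (both axes log-scaled) for the 1938 IDR peaks with a peak in both lists (grey) and for pooled peaks at 4 actin genes, with the peak 549 bp before act-1 included; act-3 is absent because replicate 1 lists none there. The 5'-end peak of act-4 lies at the lower edge of the cloud (123.2 in replicate 1 and 27.9 in replicate 2) and the peaks of act-2 and act-5 lie below most IDR peaks.

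The genes whose 5'-end peak was most like that of act-4 were found by distance in log2 signal values of replicates 1 and 2, over 799 protein-coding genes with a 5'-end IDR peak matched in both lists. The nearest 5 were ost-1, the worm SPARC gene (108.7 in replicate 1 and 31.1 in replicate 2), tsr-2 (99.1 in replicate 1 and 30.9 in replicate 2), C18B2.4 (113.8 in replicate 1 and 36.1 in replicate 2), cav-1, a caveolin gene (118.1 and 37.1), and map-1, a methionine aminopeptidase gene (107.7 and 37.8). Their ratios ran from 2.85 to 3.50, below the 4.41 of act-4. The likeness rests on 2 values per gene.

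Of 37 genes for proteins that nucleate, bind, cut or anchor actin, 36 were matched by name in the annotation. In the IDR list 4 of 36 had a 5'-end summit (11.1%, against 4.38% of all protein-coding genes) and 1 had one in the body (2.78%, against 3.09%). Those with a 5'-end summit were unc-60, the cofilin gene (296.8), gex-2 (181.7) and gex-3 (151.1), subunits of the WAVE complex that switches on Arp2/3, and arx-6, an Arp2/3 subunit (156.6). The tropomyosin gene lev-11 had the body summit (132.5). In the pooled list 21 of 36 had a 5'-end summit (58.3%, against 29.5% of all genes) and 27 of 36 a body summit (75%, against 40.6%). No test of these differences was made, and gene length was not matched. The regulators were a chosen list, drawn up with earlier results of these data known. At unc-60 the value was 180.3 in replicate 1 and 126.1 in replicate 2, and at arx-6 it was 81.95 in replicate 1 and 83.96 in replicate 2. Both pairs lay closer together than the 123.2 and 27.9 at the 5' end of act-4, but 99.9% of matched IDR peaks had a lower ratio than act-4 there. The 4 regulators became 8 when the window was widened to 1000 bp.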

How the data were processed

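Chromatin immunoprecipitation was measured in 2 biological replicates of 1 group. Per the labels, chromatin was sonicated to 200 to 800 bp. Per the file headers, the authors deposited peak lists on ce11 for each replicate, the pool and the IDR threshold, made from alignments and a shared control alignment. Each peak has the authors' signal value and a deposited −log10 q-value. The sources used here do not give the aligner, the caller, its scale, the IDR limit or the read depth, so the precision is unknown.

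Lists were read with Python 3.11.15 and numpy 2.4.6. Positions were compared with the RefSeq genome and Ensembl release 115 annotation of the same build, whose chromosomes contain every peak. Pooled peaks were matched to the strongest replicate peak overlapping by at least 1 bp. No peak was identical between replicates (0). The assignment was tested on simulated data. Coding sequences were aligned with Biopython 1.88. Uniqueness was counted for stretches of 36, 50 and 100 bases.

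The named genes were the actin genes, genes at their peaks, their neighbours, regulators with IDR summits, and the 5 genes most like act-4 in both replicates' values. Of 37 regulators, tmd-1 was not matched. Members and lists were chosen with earlier results of these data known. The alternatives are given in the closing section.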

Additional observations from a re-analysis of the deposited data

How the results depend on the processing

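The count of actin genes with an IDR summit at the 5' end, 1 as reported, was 2 with a 1000-bp window and 2 when the interval rather than the summit had to touch the window, since the peak 549 bp before act-1 then counted. It was 0 among IDR peaks above the list's median value, and 0 to 1 with a replicate left out. With the gene body included, the count of 1 became 2 with 1000 bp and 0 above that median. In replicate 2 the 5'-end count of 4 became 2 above its list's median, and the regulators' count of 4 became 8 with 1000 bp and 5 without either replicate. The other counts stayed within 1.5 times. The log2 ratio of replicate 1 to replicate 2 at the 5' end of act-4 was 2.14, 1.99 after dividing by the median of each list's strongest peaks, and 0.18 when the strongest peak of each replicate anywhere at the gene was taken. No paired analysis was possible because there is only 1 group. Depth, unknown here, and the limit of 30000 peaks decide which weak peaks are listed.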
